A study of Mus musculus with 4 samples.

Results

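The HGF and Met pathway was followed at the RNA level in the cells from which it takes its name here, the Met-low and Met-high populations of B16-F10, a mouse melanoma cell line. The genes described are *Met*, its ligand *Hgf*, the adaptors *Gab1*, *Grb2* and *Shc1*, the Ras exchange factor *Sos1*, the ubiquitin ligase *Cbl*, the shedding enzymes *Adam10* and *Adam17*, and *Spint2*, an inhibitor of the proteases that activate HGF. They were taken as all array probes whose RefSeq accession belongs to one of these 10 symbols, which gave 13 of 39429 probes and 10 of the 20832 genes that could be named. Cells of the unmodified line were divided by FACS on cell-surface Met protein, grown separately for 3 days, and their total RNA was hybridised to one-colour (Cy3) Agilent mouse arrays, with 2 independently prepared samples of Met-low and 2 of Met-high cells. No agent was given to either population, both stem from 1 cell line, and neither name means that Met is absent or uniform. The sort used the protein, so *Met* RNA is a check of the sorting target. The 4 arrays lay on 1 slide, with Met-low at the first positions and Met-high at the last, and an effect of position cannot be told apart from that of the population.

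Met is the receptor tyrosine kinase for hepatocyte growth factor (HGF). HGF is secreted as an inactive precursor and is cleaved by serine proteases, among them the HGF activator, matriptase and hepsin, which the transmembrane proteins Spint1 and Spint2 inhibit. Active HGF brings Met molecules together, the receptor phosphorylates its own tail, and Grb2, Shc1 and above all Gab1 dock there. Grb2 carries Sos1 to the membrane to load Ras with GTP, while Cbl marks the receptor with ubiquitin for endocytosis and degradation. Independently of the ligand, Adam10 and Adam17 cut off the ectodomain of Met, and gamma-secretase then cuts the fragment left in the membrane. In melanocytes and melanoma cells the transcription factors Mitf, Sox10 and Pax3 are known to act on *Met* expression.

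The stretch just before the start of *Met* is printed because Mitf binds E-boxes and its own RNA is among the values below. These are the 250 bases before the RefSeq start on the plus strand of GRCm38.p6, chr6:17463707-17463956, 5′ to 3′. The capitals mark an E-box (CACGTG) that starts 126 bases before the gene's start and an AP-1 site (TGAGTCA) that starts 54 bases before it.
Met promoter: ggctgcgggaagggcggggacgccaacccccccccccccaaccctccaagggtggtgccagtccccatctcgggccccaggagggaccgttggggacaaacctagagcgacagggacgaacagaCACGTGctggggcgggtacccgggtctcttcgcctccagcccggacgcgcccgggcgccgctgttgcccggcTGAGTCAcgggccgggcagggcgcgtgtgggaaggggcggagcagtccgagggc
Letters were searched on both strands in the same stretch of all 32851 promoter windows of the table, and none of the matches in the *Met* stretch overlap each other. CACGTG was found in 6.02% of all windows, and among the genes described here it was found for *Met* and *Adam10* (64 bases before the start). Another E-box form, CATGTG, was found in 12.3% of all windows. Among these genes it was found for *Hgf* alone (19 bases before the start of 1 of its windows), and not for *Met*. TGAGTCA was found in 4.46% of all windows, for *Met* and for *Shc1* (92 bases before the start of 1 of its windows). The GC box GGGCGG was found in 32.7% of all windows and in 8 of the 14 windows of the 10 genes, which belong to *Met*, *Gab1*, *Shc1*, *Cbl*, *Adam10*, *Adam17* and *Spint2*. A match describes letters and does not show that a factor binds there.

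Values are background-corrected Cy3 intensities, or log2 of the intensity minus log2 of the array's 75th percentile (log2 level), which puts the 4 arrays on 1 scale. The 75th percentile itself was 942 and 1331 for Met-low and 858 and 1111 for Met-high, so raw intensities are to be compared across arrays only with this in view. At most 53.6% of the spots of an array were well above background, and 0 were saturated. Over 11948 genes tested, the arrays of a population correlated at 0.990 in Met-low and 0.990 in Met-high (Pearson's r across genes, which are not independent), against 0.967 to 0.976 between populations. Of the genes described, 8 were well above background on all 4 arrays and were tested, whereas *Hgf* and *Sos1* were not.

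*Met* RNA overlapped between the populations. The *Met* probe (A_51_P103929, NM_008591) gave an intensity of 789 and 721 in Met-low and of 1759 and 826 in Met-high. As log2 levels these were -0.26 and -0.89 in Met-low against 1.03 and -0.43 in Met-high. Met-high replicate 1 stood above both Met-low arrays, whereas Met-high replicate 2 lay between them, so the populations overlapped. The means were -0.57 ± 0.44 in Met-low and 0.30 ± 1.04 in Met-high (SD, n = 2), a log2 ratio of 0.87 (SE 0.51), or 1.83-fold higher in Met-high, which did not pass the test (limma, adjusted p = 0.332). The 95% interval ran from -0.42 to 2.17 on the log2 scale. In bulk RNA of this kind, fewer *Met*-expressing cells and less *Met* RNA per cell cannot be told apart.

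The spread of *Met* lay between the samples and not between spots of the probe. This probe is printed 10 times on each array, and 1 spot of Met-low replicate 1 was left out as an outlier. The SD of the log2 levels over spots was between 0.04 and 0.09 on all 4 arrays. The spots of Met-high replicate 1 ranged from 0.94 to 1.08, apart from the spots of the other 3 arrays. Those of Met-high replicate 2 ranged from -0.49 to -0.20. Only the highest of them lay in the range of Met-low replicate 1, from -0.36 to -0.15, and the rest lay below it. Met-low replicate 2 ranged from -0.97 to -0.78. Between samples, the replicates differed by 1.46 on the log2 scale in Met-high, a wider gap than for 98.9% of all genes tested, and by 0.63 in Met-low, wider than for 91.2%. Single arrays moved the value of *Met*. Leaving out Met-high replicate 2 raised the log2 ratio to 1.61 (adjusted p = 0.0186, limma), and leaving out Met-high replicate 1 brought it to 0.14 (adjusted p = 0.820). In such a fit the lone array of a population is assumed to have the spread of the other population. Between same-numbered arrays, Met-high was the higher at both numbers (1.03 against -0.26, and -0.43 against -0.89). No label ties such arrays into pairs. A fit with the replicate number as a block, which *Met* narrowly passed, is given in the closing section. That fit passed a much larger share of all genes than the main one.

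**Figure D1:**
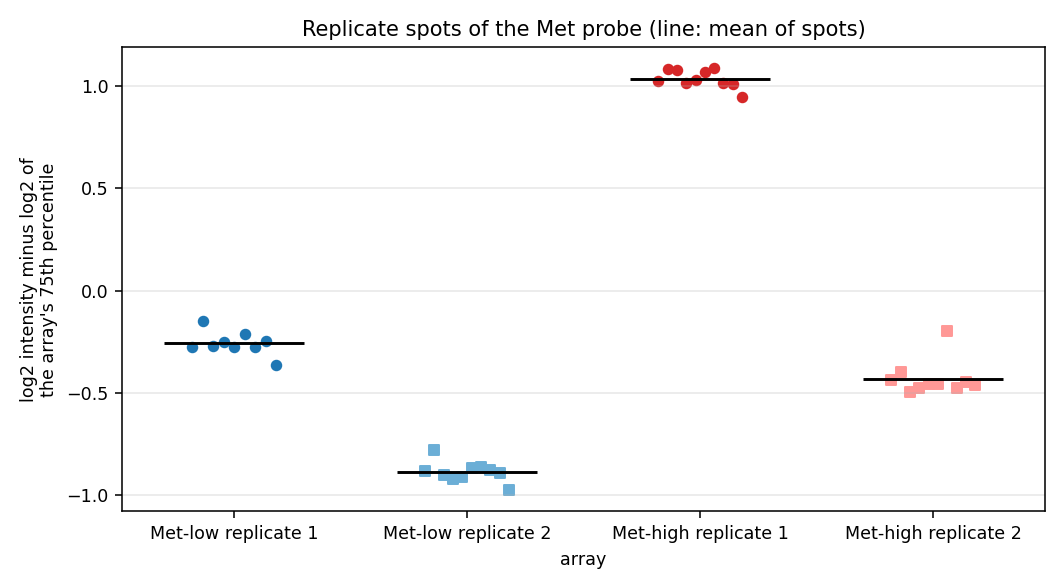
Log2 level of each unflagged spot of the *Met* probe (y axis, log2 intensity minus log2 of the array's 75th percentile) on the 4 arrays (x axis), with a line at the mean of the spots. The spots of an array lie close together, those of Met-high replicate 1 between 0.94 and 1.08. Those of Met-high replicate 2 lie, except for the highest, below those of Met-low replicate 1.

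The ligand was near the limit of detection. *Hgf* (A_51_P484998, NM_010427) gave an intensity of 8.52 and 51.0 in Met-low and of 21.6 and 8.87 in Met-high, and was well above background on 1 array, Met-low replicate 2. It was therefore not tested, and no fold is given. The inhibitor of HGF activation behaved otherwise. *Spint2* was bright on 1 of its 2 probes (A_55_P2111713, NM_001082548), at 3376 and 4312 in Met-low and 4137 and 3943 in Met-high. Its log2 levels were 1.84 and 1.70 in Met-low and 2.27 and 1.83 in Met-high, which overlapped. The log2 ratio was 0.28 (SE 0.21, adjusted p = 0.434, 95% interval -0.25 to 0.81). The other *Spint2* probe (A_66_P124011, NM_011464) was well above background on none of the arrays, at 10.3 and 11.001 in Met-low and 7.52 and 8.58 in Met-high.

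None of the adaptors passed the test. *Gab1*, the main docking protein of Met (A_52_P417437, NM_021356), was dim, at 110 and 115 in Met-low and 65.1 and 80.7 in Met-high. Its log2 levels of -3.102 and -3.54 in Met-low were both above those of -3.72 and -3.78 in Met-high. The log2 ratio was -0.43 (SE 0.20), 1.35-fold higher in Met-low, with an adjusted p of 0.248 and a 95% interval from -0.94 to 0.08. This was the lowest adjusted p among the 8 genes.

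*Grb2*, which links Met and Gab1 to Sos1, was among the probes of high intensity (A_51_P198411, NM_008163), at 5720 and 5992 in Met-low and 5306 and 5494 in Met-high. The log2 levels of 2.60 and 2.17 in Met-low and 2.63 and 2.31 in Met-high overlapped. The log2 ratio of 0.08 (SE 0.22, adjusted p = 0.850, 95% interval -0.49 to 0.65) has no settled direction, since it was -0.062 with quantile normalisation and -0.064 with the 75th percentile taken over detected probes. The second *Grb2* probe (A_55_P2123727) read 278 and 403 in Met-low and 269 and 369 in Met-high. There the log2 ratio was 0.11 (SE 0.15, adjusted p = 0.702 over all probes).

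*Shc1*, the adaptor that gives Grb2 a further docking site (A_55_P1979082, NM_001113331), read 4711 and 5763 in Met-low and 4464 and 5690 in Met-high. On the log2 scale the Met-high levels, 2.38 and 2.36, were just above those of Met-low, 2.32 and 2.11. The log2 ratio of 0.15 (SE 0.16, adjusted p = 0.598, 95% interval -0.27 to 0.57) was close to the median of all genes tested, 0.10. *Sos1* (A_52_P341339, NM_009231), the exchange factor, was well above background on none of the 4 arrays, at 10.4 and 18.3 in Met-low and 7.22 and 8.40 in Met-high, and was not tested.

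*Cbl*, the ligase that sends Met to degradation (A_52_P819011, NM_007619), had the widest replicate gap of the 8 genes tested. Its intensities were 401 and 364 in Met-low and 364 and 142 in Met-high. The log2 levels were -1.23 and -1.87 in Met-low and -1.24 and -2.97 in Met-high, so that Met-high replicate 1 matched Met-low replicate 1 and Met-high replicate 2 was lower than all others. The replicates of Met-high differed by 1.73, a wider gap than for 99.3% of all genes tested, and those of Met-low by 0.64, wider than for 91.6%. The log2 ratio was -0.55 (SE 0.59, adjusted p = 0.585, 95% interval -2.03 to 0.93). Its direction turned with 1 array. Leaving out Met-high replicate 1 gave -1.42 (adjusted p = 0.0312, limma), and leaving out Met-high replicate 2 gave 0.31 (adjusted p = 0.659). In both populations *Met* and *Cbl* were higher in replicate 1 than in replicate 2, as were all other genes tested here except *Adam17*. The array at which *Met* was highest, Met-high replicate 1, was not the one at which *Cbl* stood apart.

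The shedding enzymes were lower in Met-high in their point estimates, and neither passed the test. *Adam10* (A_55_P1967216, NM_007399) read 6209 and 6598 in Met-low and 4521 and 4415 in Met-high. Scaled to the arrays, the log2 levels were 2.72 and 2.31 in Met-low and 2.40 and 1.99 in Met-high, and the populations overlapped. The log2 ratio was -0.32 (SE 0.23, adjusted p = 0.424, 95% interval -0.91 to 0.27). *Adam17*, also known as TACE, was dim on both of its probes (NM_009615). The brighter one (A_55_P2128188) read 62.8 and 97.8 in Met-low and 54.2 and 71.3 in Met-high, with log2 levels of -3.91 and -3.77 against -3.98 and -3.96. Its log2 ratio of -0.13 (SE 0.16, adjusted p = 0.620, 95% interval -0.53 to 0.26) became 0.012 with normexp background correction and 0.044 with quantile normalisation. The dimmer probe (A_55_P1999097) read 55.9 and 66.8 in Met-low, where it was well above background on both arrays, and 35.6 and 36.7 in Met-high, where it was well above background on neither. Its log2 ratio was -0.56 (SE 0.20, adjusted p = 0.204 over all probes, limma), with a 95% interval from -1.08 to -0.04. Ratio and interval are not independent of the filter on dim probes, since the probe entered the test only through Met-low, where it read higher. Taking its Met-high readings as upper limits of the signal, since they were above the lowest detected signal of those arrays, the point estimate amounts to at least 1.48-fold, which leaves the spread between samples aside. Both *Adam17* probes read lower in Met-high on the log2 scale without overlap, and neither difference passed. Taken probe by probe, 0 of the 10 probes of these genes that could be tested passed, where 2.62% of all probes tested did, and 1 of the 10, this dimmer *Adam17* probe, had an unadjusted p under 0.05, where 22.5% of all probes tested did.

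**Figure D2:**
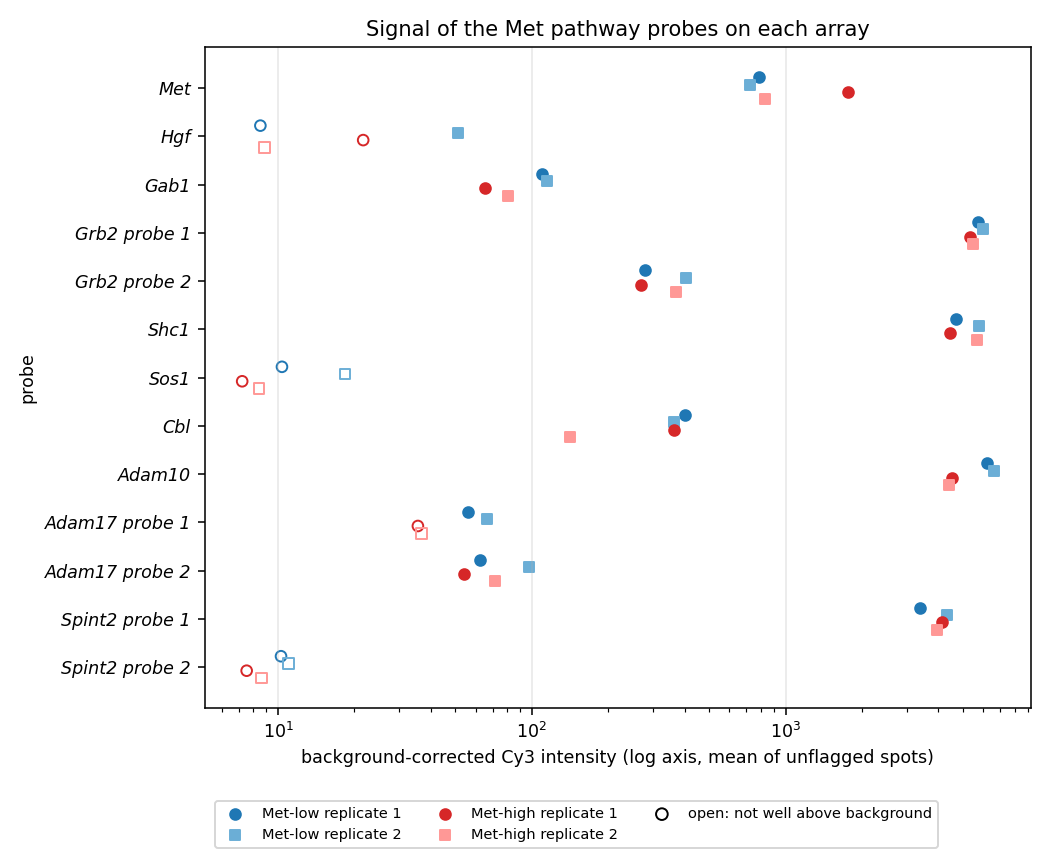
Background-corrected Cy3 intensity (x axis, log scale, mean of the unflagged spots) of each of the 13 probes (y axis) on the 4 arrays, with open symbols where a probe was not well above background. *Hgf*, *Sos1* and the second *Spint2* probe lie at the dim end, and *Met* and *Cbl* are the genes where 1 Met-high array stands apart.

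Across the genes described, 0 of the 8 tested passed an adjusted p of 0.05 (limma), where 5.75% of all genes tested passed, 1.94% as higher in Met-high and 3.81% as higher in Met-low. At an unadjusted p under 0.05 the count was also 0, against 26.2% of all genes, and the methods' t-test, which is named there for comparisons of 2 groups in general and not for the arrays, gave 0 where it passed 18.5% of all genes unadjusted. None of the 8 had means past 2-fold, against 7.7% of all genes. The arrays of the populations did not overlap for 3 of 8, *Gab1* and *Adam17* with Met-low above and *Shc1* with Met-high above, against 58.4% of all genes (22.6% with Met-low above and 35.7% with Met-high above). For 6 of 8 the 95% interval of the ratio lay within 2-fold in either direction, against 68.7% of all genes, and the exceptions were *Met* and *Cbl*. Met-high had the higher mean for 4 genes and Met-low for 4. The median log2 ratio was -0.03, beside 0.10 for all genes tested. With the 75th percentile taken over detected probes only, these medians were -0.17 and -0.049, so all ratios shift together with the scaling by about as much as the smaller ones measure.

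**Figure D3:**
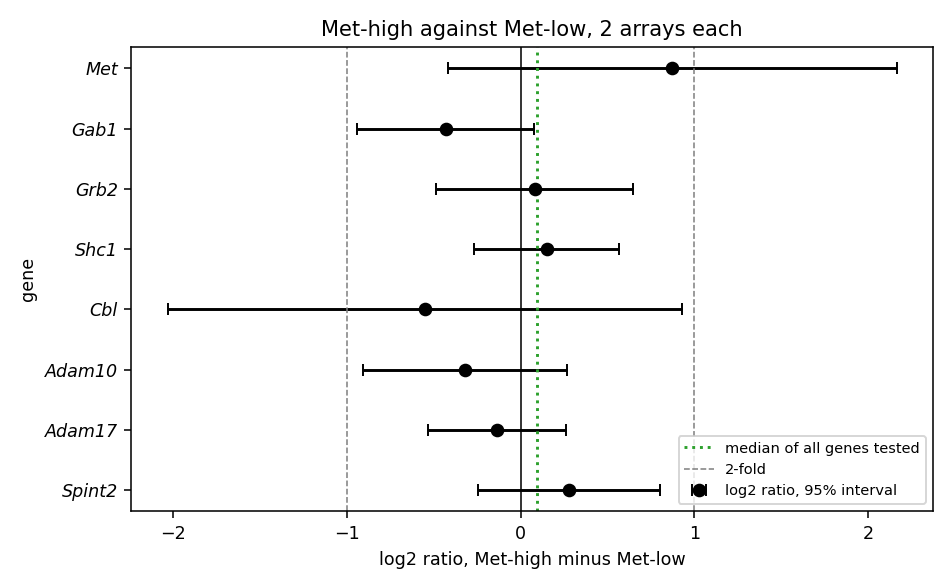
Log2 ratio of Met-high over Met-low (x axis, point) with its 95% interval (bar) for the 8 genes tested (y axis), 2 arrays a population. All 8 intervals include 0, and those of *Met* and *Cbl* are the widest and reach past 2-fold (dashed lines), while the dotted line marks the median of all genes tested, 0.10.

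Around these genes, 61 others of the pathway were taken in 6 lists, of which 60 had a named probe and 47 were tested. 1 was higher in Met-high, 2 were higher in Met-low and 44 did not pass, a share near that of all genes tested (5.75%). Their median log2 ratio was -0.03, and 32 of 47 intervals lay within 2-fold, again close to all genes (68.7%). The 3 that passed were *Timp3*, *Timp1* and *Nrp1*, which encode secreted or cell-surface proteins. All 3 calls were lost, at the same log2 ratios, when dim probes were not filtered out (limma, adjusted p from 0.0735 to 0.125) and in the methods' t-test after Benjamini-Hochberg adjustment (0.196 to 0.248).

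*Timp1* and *Timp3* belong to the list on Met maturation, shedding and intramembrane cleavage, in which 10 of 11 genes were tested. They encode secreted inhibitors of metalloproteinases, and TIMP3 is known to inhibit both Adam10 and Adam17. *Timp3* (NM_011595) read 1452 and 1918 in Met-low and 192 and 254 in Met-high, with log2 levels of 0.62 and 0.53 against -2.16 and -2.13. It was 6.59-fold lower in Met-high (log2 ratio -2.72, SE 0.15, adjusted p = 0.00486). *Timp1* (NM_001044384), which is known to inhibit Adam10, went the other way, at 246 and 650 in Met-low and 1489 and 2312 in Met-high. The log2 levels were -1.94 and -1.03 in Met-low and 0.80 and 1.06 in Met-high, a log2 ratio of 2.41 (SE 0.33, adjusted p = 0.0221). The 2 inhibitors differed between the populations in opposite directions. In the same list the third inhibitor, *Timp2*, had a log2 ratio of 0.20 (adjusted p = 0.474) and the convertase *Furin*, which cleaves the Met precursor, one of 0.42 (adjusted p = 0.278). The median over the list was 0.12.

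Among relatives and co-receptors of Met, 7 of 9 were tested. *Nrp1*, neuropilin-1, which binds HGF and other growth factors (NM_008737), read 297 and 287 in Met-low and 75.7 and 89.1 in Met-high. The log2 levels were -1.67 and -2.21 in Met-low and -3.50 and -3.64 in Met-high. It was 3.099-fold lower in Met-high (log2 ratio -1.63, SE 0.23, adjusted p = 0.0240). The other 6 did not pass, and the median over the list was 0.06. *Mst1r*, the receptor most closely related to Met, and its ligand *Mst1* were not detected on both arrays of either population.

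In the remaining lists 0 genes passed (limma). Of 8 HGF-activating proteases and their inhibitor *Spint1*, counted together, 2 could be tested, and *Hgfac*, *St14*, *Hpn*, *Plau*, *Klkb1* and *Tmprss13* could not. *Spint1* (NM_016907), which inhibits the same proteases as Spint2, read 32.2 and 65.7 in Met-low and 73.9 and 97.4 in Met-high, and was not well above background on Met-low replicate 1. Its log2 ratio was 1.08 (SE 0.22, limma, adjusted p = 0.0573), and it did not pass. The probe entered the test only through Met-high, where it read higher. A second *Spint1* probe read 18.8 and 28.3 in Met-low and 24.2 and 134 in Met-high. Only the last of these was well above background. With the mean of all its probes *Spint1* had a log2 ratio of 1.29 (limma, adjusted p = 0.124) and did not pass. It passed with quantile normalisation (1.25, adjusted p = 0.0372) and without Met-low replicate 2 (1.35, adjusted p = 0.0230), and not without any of the other 3 arrays (at least 0.82, adjusted p from 0.0640 to 0.148) or with normexp (0.57, adjusted p = 0.0755). Among 15 of 18 other adaptors and effectors tested, the median was -0.01 and *Pik3r1*, the regulatory subunit of PI 3-kinase (NM_001077495), was farthest from 0. It read 309 and 185 in Met-low and 136 and 61.4 in Met-high, and its log2 levels of -1.61 and -2.85 in Met-low and -2.65 and -4.18 in Met-high overlapped. The log2 ratio was -1.19 (SE 0.62, adjusted p = 0.289), and single arrays moved it both ways. It was -1.95 without Met-high replicate 1 (adjusted p = 0.0333) and -1.81 without Met-low replicate 2 (adjusted p = 0.0951), but -0.42 without Met-high replicate 2 (adjusted p = 0.671) and -0.57 without Met-low replicate 1 (adjusted p = 0.638). Among 10 of 12 genes of dephosphorylation, ubiquitination and endocytosis, the median was -0.14, beside 0.10 for all genes tested. The mean was higher in Met-low for 8 of them and in Met-high for 2. Some of the 8 differed by little (*Ptpn2* -0.03, *Errfi1* -0.08), and ratios of that size shift with the scaling. *Usp8*, a deubiquitinating enzyme of endosomes (NM_001252580), was farthest from 0 there, at 64.8 and 127 in Met-low and 34.9 and 50.3 in Met-high, where replicate 1 was not well above background. Its log2 ratio was -0.92 (SE 0.22, adjusted p = 0.0748). It was -1.15 without Met-low replicate 1 (adjusted p = 0.0496), -0.68 without Met-low replicate 2 (adjusted p = 0.208) and -0.33 with normexp background correction (adjusted p = 0.223).

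**Figure D4:**
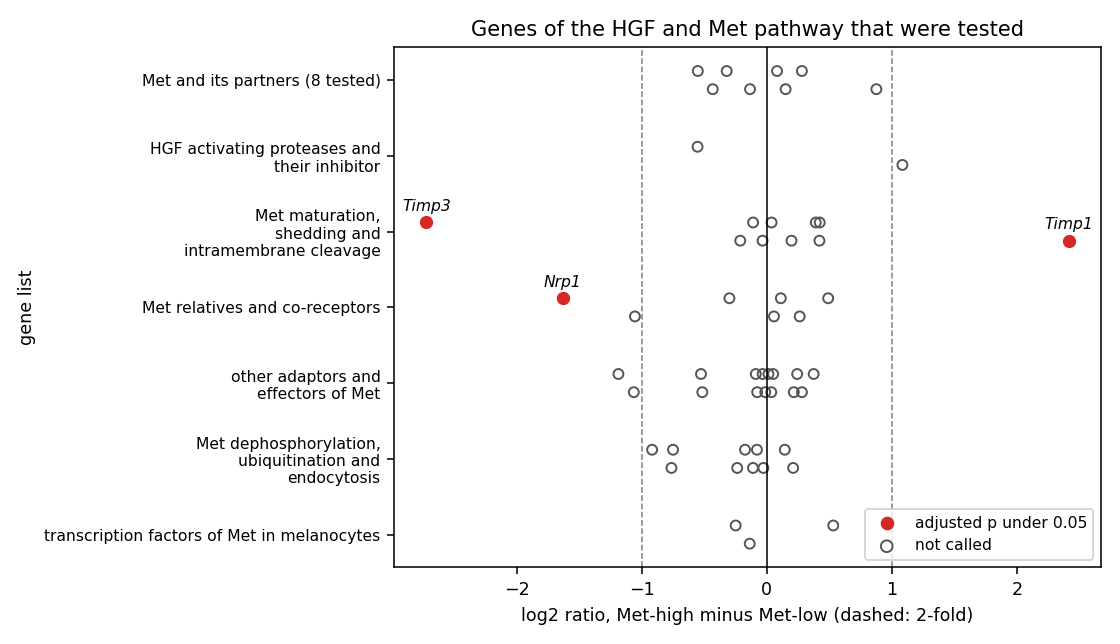
Log2 ratio of Met-high over Met-low (x axis, dashed lines at 2-fold) for each tested gene of *Met* with its partners and of the 6 further lists (y axis). Filled points passed an adjusted p of 0.05, which were *Timp3* and *Nrp1* on the Met-low side and *Timp1* on the Met-high side.

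The 3 transcription factors of Met were bright in both populations. *Mitf*, the regulator of the melanocyte lineage (NM_001113198), read 38361 and 59659 in Met-low and 33739 and 42637 in Met-high, a log2 ratio of -0.14 (SE 0.16, adjusted p = 0.614). Its second probe gave -0.21 (adjusted p = 0.768 over all probes). *Sox10* (NM_011437), which acts upstream of *Mitf*, read 37307 and 46671 in Met-low and 44408 and 62137 in Met-high. Its log2 levels, 5.31 and 5.13 against 5.69 and 5.81, did not overlap, and the log2 ratio was 0.53 (SE 0.16, adjusted p = 0.128). *Pax3* (NM_008781), which acts with Sox10, read 9042 and 14994 in Met-low and 7979 and 9141 in Met-high, a log2 ratio of -0.25 (SE 0.18, adjusted p = 0.412). A second *Pax3* probe gave -0.38 (limma, adjusted p = 0.271 over all probes). On the probes used, the log2 levels of the other genes did not overlap either. They were 5.35 and 5.49 against 5.30 and 5.26 for *Mitf*, and 3.26 and 3.49 against 3.22 and 3.04 for *Pax3*. No overlap was found for 58.4% of all genes tested. The intervals of all 3 lay within 2-fold in either direction, and 0 of 3 passed.

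The label of the cells was set against markers. All 8 melanocytic markers (*Mitf*, *Sox10*, *Pmel*, *Mlana*, *Tyr*, *Tyrp1*, *Dct* and *Gpr143*) were well above background on all 4 arrays, and 0 passed the test between the populations (limma). Their summed level relative to the 75th percentile was 1711 and 1402 in Met-low and 1717 and 1510 in Met-high. Of 4 fibroblast markers, *Dcn* and *Pdgfra* were not detected on any array, *Col1a1* was detected on Met-low replicate 1 alone and *Col1a2* on all 4. Their sum was 0.611 and 0.670 in Met-low against 0.292 and 0.307 in Met-high, most of it from *Col1a2* alone. *Col1a2* read 480 and 803 in Met-low and 214 and 299 in Met-high. It was lower in Met-high (log2 ratio -1.10, limma, adjusted p = 0.031), in the direction of *Timp3* and *Nrp1* and opposite to *Timp1*. Whether fibroblast RNA had a part in those results was not tested. Of 2 leukocyte markers with a probe, *Cd3e* was detected on all 4 arrays and *Ptprc* on none. Their sums, nearly all from *Cd3e*, were 1.70 and 1.26 in Met-low and 2.53 and 1.42 in Met-high. Of 3 endothelial markers, *Kdr* was detected on all 4 and *Cdh5* on none, with sums of 6.30 and 5.47 in Met-low and 8.43 and 6.72 in Met-high. The detection of *Kdr* and most of these sums rest on its brighter probe alone. The other *Kdr* probe, of the same RefSeq accession, was well above background on none of the arrays. Which of these probes reflects *Kdr* RNA was not tested. Neither of 2 keratinocyte markers was detected on all 4, and their sums were at most 0.0977. None of those tested passed (limma).

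The genes whose values ran closest to those of *Met* over the 4 arrays were *Reck*, *Grik5*, *Cish*, *Adrb1* and *Cant1*, among 11223 genes detected on all arrays. Closeness is the root mean square distance of the log2 levels after the mean of each gene was taken off, which was 0.15, 0.17, 0.17, 0.18 and 0.19 for the 5, beside a median of 0.73. *Reck*, a membrane-anchored inhibitor of metalloproteinases, read 147 and 170 in Met-low and 326 and 183 in Met-high. *Cish*, a suppressor of cytokine signalling, read 158 and 195 in Met-low and 359 and 180 in Met-high. Both had, like *Met*, 1 high array, Met-high replicate 1, which follows from how they were chosen. The list depends on the processing, as 0 of the 5 remained with normexp background correction and 3 with the mean of all probes of a gene.

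**Figure D5:**
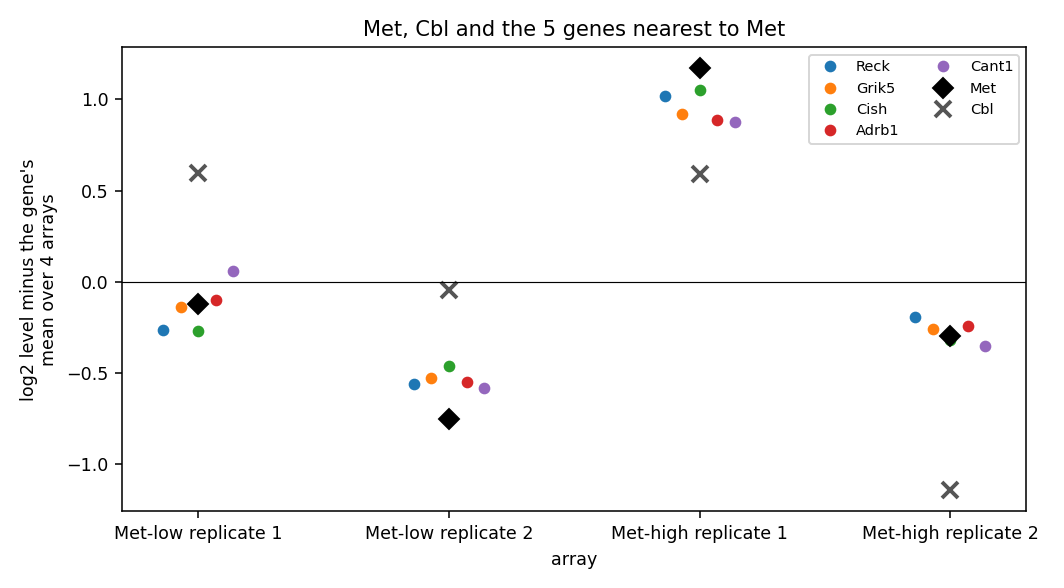
Log2 level minus the mean of the gene over the 4 arrays (y axis) for *Met*, *Cbl* and the 5 genes nearest to *Met* on each array (x axis). The 5 genes, chosen for closeness to *Met*, peak on Met-high replicate 1, whereas *Cbl* has its lowest value on Met-high replicate 2.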

How the data were processed

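The authors deposited the scanner output of 4 one-colour arrays, in which Agilent Feature Extraction (11.0.1.1 per the file headers, 10.7.3.1 per the submitters' notes) gives each spot a linear, background-corrected intensity and flags it as an outlier, as saturated or as well above background. They also deposited a table of log2 values, which match these intensities once divided by the array's 75th percentile and centred per probe, and which served as an alternative. Here log2 intensity minus the log2 75th percentile of the array was used. Outlier spots, by either flag (non-uniform or population), were dropped, spots of a probe were averaged, and probes were named by accession through the RefSeq table of GRCm38.p6 (27427 of 39429). The probe with the highest mean stood for a gene, and a gene was tested where that probe was well above background in both samples of 1 population or of both. The comparison used lmFit and eBayes (limma 3.58.1, R 4.3.3), which were tested on simulated data, with Benjamini-Hochberg adjustment over all genes or all probes, a threshold of 0.05 and 95% intervals. All p-values are two-sided. With 2 arrays against 2 a permutation has 3 splits and cannot reach 0.05.

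The samples of a population are called independently prepared in the methods, and p-values measure only the spread between them. The genes and lists were chosen with earlier results of these data known. All 10 genes are named, then in each list the genes that passed or else the 1 farthest from 0, the 3 transcription factors, and the 5 genes nearest to *Met*. *Timp2*, *Furin*, *Mst1r*, *Mst1* and *Col1a2* were named after their values were seen. Alternatives changed the background correction, the scaling, the filter on dim probes, a floor after scaling, flagged spots, the rule for several probes, the test and the arrays used.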

Additional observations from a re-analysis of the deposited data

How the results depend on the processing

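Of the 10 genes, 0 passed under any change of background correction, scaling, filter, floor, flagged spots, rule for several probes or source of the values, with 0 or 1 at an unadjusted p under 0.05 (limma), and Cbl alone passed without Met-high replicate 1 and Met alone without Met-high replicate 2 (0 to 1 over the 4 leave-one-out fits). Met ranged from 0.14 to 1.61, Cbl from -1.42 to 0.31 and Grb2 from -0.14 to 0.30 over those fits, and the median of the 8 tested from -0.10 to 0.20. Pathway genes that passed ranged from 3 to 6, probes from 282 to 407 and all genes from 590 to 877. Timp1, Timp3 and Nrp1 passed in all 4 of these fits. Normexp gave Adam17 0.012 and a median of the 8 of 0.021. Quantile normalisation gave Grb2 -0.062 and Adam17 0.044. The percentile over detected probes gave Grb2 -0.064 and a median over all genes of -0.049, with 80.7% of called genes higher in Met-low against 66.2%. The causes of these changes of sign were not tested. Without a filter on dim probes 7 genes, 0 pathway genes and 0 probes passed (2658, 10 and 3934 at an unadjusted p under 0.05, limma), and the median over all genes was -0.093. The cause was not tested. There Timp1, Timp3 and Nrp1 had unchanged log2 ratios and adjusted p-values of 0.116, 0.0735 and 0.125. The methods' t-test, named there for comparisons of 2 groups in general, gave 2211 genes, 5 pathway genes and 3318 probes unadjusted, and 1, 0 and 0 after Benjamini-Hochberg. A 2-fold difference without a test gave 7 pathway genes and 1572 probes against 3 and 518 that passed.

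Same-numbered arrays deviated together (r = 0.54 across genes between the replicate differences of the populations), but only 2 pairs share a number and no label ties them. With the replicate number as a block, 3552 of 11948 genes and 3260 of 19776 probes passed (limma). So did 14 of the 47 pathway genes tested, a share near that of all genes. Of the 8 genes tested among the 10, 1 passed, a smaller share. It was Met, at 0.87 with an adjusted p of 0.04996 (limma). With the replicate block 44.4% of called genes were higher in Met-low. Slide and scan could not serve as a block, since there was 1 of each. What these arrays can show is limited by 2 samples a population and, for Hgf, Sos1 and the dimmer probes of Adam17 and Spint2, by signal near background.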
